A study of Mus musculus with 12 samples.

Results

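The livers of wild-type mice fed quercetin for 24 h were compared with those of wild-type mice kept on the control diet. The comparison uses 6 of the 12 arrays of the series: the 3 wild-type quercetin arrays and the 3 wild-type control arrays, chosen by their titles. All animals were male, were 6 to 8 weeks old and had first been adapted for 14 days to a soya-free powdered diet (RM3 (E)). The wild-type animals were C57BL/6. The control group stayed on that diet. The quercetin group received it with quercetin at 6.2 g per kg, a dose also given as 7 mg per mouse. The other 6 arrays came from male cytochrome P450 reductase null mice, 3 on each diet. That reductase (POR) supplies electrons to the cytochromes P450 of the endoplasmic reticulum. They helped to estimate the spread between arrays and to choose each gene's probe set, and the response to quercetin in them is set beside that of wild type at the end. Each array carried total RNA of whole liver pooled from 3 mice and hybridised to an Affymetrix 430A chip, so the values are means over animals and the spread between single mice is not seen. Mice were housed 3 to a cage, and the labels do not say whether a pool was a cage.

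Quercetin is a flavonol of onions, apples and tea. After absorption it is conjugated in gut and liver by enzymes that include glucuronosyltransferases and sulfotransferases. In cultured cells it is known as a ligand of the aryl hydrocarbon receptor, as an activator of the antioxidant factor NRF2 and as an inhibitor of heat shock factor and of several kinases. The liver is also where dietary amino acid nitrogen is turned into urea, where cholesterol is made and converted into bile acids, and where most drug-metabolising enzymes are expressed. Gene lists for these processes are described below, and they were chosen with earlier results of these data known.

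Control pool 1 stood closer to the quercetin arrays than to the other control pools. Over all probe sets its values correlated with those of the quercetin arrays at r = 0.992 to 0.993, against 0.989 and 0.988 with control pools 2 and 3. On the first principal component of the 6 arrays (35.6% of the variance) control pool 1 lay at -9.94, beside the quercetin pools at -13.7, -6.17 and -11.3, whereas control pools 2 and 3 lay at 19.0 and 22.2. The log2 differences of the quercetin mean from control pool 1 had an SD of 0.172, from control pool 2 of 0.245 and from control pool 3 of 0.249. Probe sets that differed by over 0.5 numbered 279, 895 and 1047 in that order. The 3′ minus 5′ difference of the Pcx control, a measure of RNA integrity, was 1.72 in control pool 1 and 2.17 to 2.58 in the other 5 arrays. For Tfrc control pool 1 was also the lowest, at 0.991 against 1.02 to 1.278. It lay within the other arrays for beta-actin (0.84 against 0.79 to 1.005) and Gapdh (-0.213 against -0.225 to -0.14). For the beta-actin, Gapdh, Tfrc and Pcx controls the diets gave p = 0.3, 0.7, 0.2 and 0.9 in a two-sided exact permutation test, which cannot go below 0.1 with 3 arrays a group. The main lists and the genes that turn on it are therefore also given against single control pools or without control pool 1.

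By limma, 0 of 22626 probe sets passed an adjusted p of 0.05 (0% called), and the lowest adjusted p was 0.0783. At an unadjusted p under 0.05 there were 1942 probe sets (8.58%), of which 965 were higher (4.27%) and 977 lower (4.32%) with quercetin. At the median probe set the 95% interval of a difference reached 0.24 log2 units to either side. All 3 quercetin arrays lay above all 3 control arrays for 703 of 12393 genes (5.67%) and below them for 772 (6.23%). Of these genes, 36 in each direction had diet means that differed by over 0.5 log2 units.

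The number of calls depended on control pool 1. When it was left out, 151 probe sets passed (0.667% called), of which 89 were higher (0.393%) and 62 lower (0.274%). By the 1 probe set that stands for each gene, 84 of 12393 genes passed (0.678%), 50 higher and 34 lower. In 83 of the 151 probe sets control pool 1 lay level with the quercetin arrays or beyond the nearest of them. In 45 of the 84 genes the diets did not overlap with all 6 arrays in view. Over all genes 5.67% lay apart above and 6.23% below. When the quercetin mean was set against control pool 1, 60 of the 84 kept their sign. The 84 were picked with the same quercetin arrays, so neither the 45 nor the 60 is separate support for the calls. Without control pool 2 or 3 the number of probe sets that passed was 0, and without quercetin pool 1, 2 or 3 it was 1, 0 and 0. Against 1 control pool at a time, with that array assumed to vary like the arrays of the other groups, 1 probe set passed for pool 1 (0.00442% called) and was lower. For pool 2, 4 passed (0.0177%), 3 higher (0.0133%) and 1 lower (0.00442%). For pool 3, 31 passed (0.137%), 28 higher (0.124%) and 3 lower (0.0133%), but only 4 passed for pool 3 when any 1 quercetin pool was left out.

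**Figure D1:**
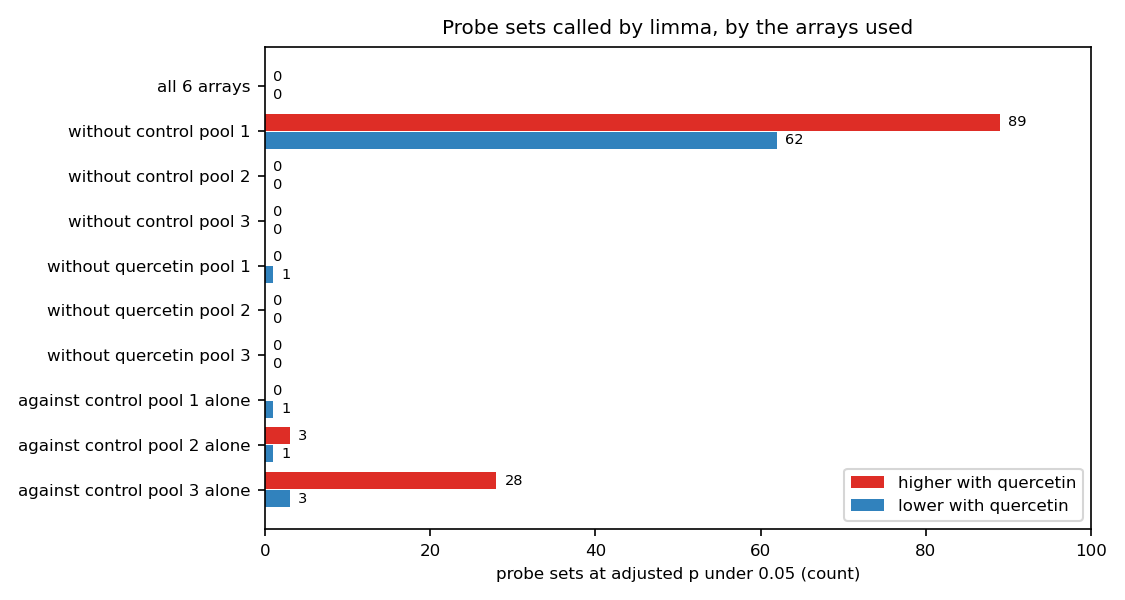
Number of probe sets at an adjusted p under 0.05 by limma for the comparison of quercetin with control diet in wild-type liver, by the arrays used; red bars are probe sets higher with quercetin and blue bars lower. Leaving out control pool 1 gives 89 higher and 62 lower, and setting quercetin against pool 3 alone gives 28 and 3, while every other choice gives at most 3 in either direction.

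Genes that turn amino acid nitrogen into urea lay higher with quercetin, against each of the control pools. All 7 measured urea cycle genes were above their control mean, with a median log2 difference of 0.29 against -0.0047 over all genes. In 6 of the 7 the diets did not overlap (5.67% of all genes lay apart in this direction). The median was 0.30, 0.36 and 0.33 against control pools 1, 2 and 3. None passed over all probe sets, with or without control pool 1, so these are counts and medians of differences of which no single one was called.

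Arg1, the arginase that releases urea, read 11.19, 11.40 and 11.41 in control pools 1 to 3 and 11.76, 11.54 and 11.93 in quercetin pools 1 to 3, on the log2 scale. The lowest quercetin pool lay above the highest control pool, and the difference was 0.41 ± 0.10 (SE, 3 arrays a group; adjusted p = 0.355). Slc25a15, the mitochondrial ornithine carrier, read 9.91, 10.03 and 10.10 in the control pools and 10.41, 10.32 and 10.43 in the quercetin pools (0.37 ± 0.12). Asl, argininosuccinate lyase, read 11.40, 11.06 and 11.18 in the control pools and 11.88, 11.65 and 11.57 in the quercetin pools (0.49 ± 0.19). Here control pool 1 was the highest of the controls and still below every quercetin pool. Nags, which makes the activator of the first step, stood at 0.29 ± 0.11 and Slc25a13, the aspartate-glutamate carrier, at 0.29 ± 0.11. Cps1, the enzyme of that first step, differed by 0.19 ± 0.12 without overlap. Otc, ornithine transcarbamylase, was the 1 member whose diets overlapped: it read 11.01, 10.65 and 10.36 in the control pools and 10.84, 10.998 and 10.91 in the quercetin pools, and control pool 1 exceeded all quercetin pools.

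Enzymes that open the breakdown of single amino acids lay on the same side. Of 31 measured members 25 lay above their control mean (6020 of 12393 genes, 48.6%, did so overall), with a median of 0.19 and of 0.18, 0.25 and 0.18 against the 3 control pools. In 10 the quercetin arrays lay above all controls (5.67% of all genes), and in 0 below (6.23%). Hal, which starts histidine breakdown, read 9.35, 9.07 and 9.14 in the control pools and 10.08, 9.79 and 10.39 in the quercetin pools. The diets were clear of each other, and the difference was 0.90 ± 0.16, or 1.86-fold (adjusted p = 0.197). Ftcd and Amdhd1, later enzymes of the same pathway, stood at 0.38 ± 0.12 and 0.49 ± 0.16. Uroc1, the enzyme that follows Hal, was at 0.25 ± 0.12.

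Glycine and glyoxylate enzymes lay on this side too. Gldc, the decarboxylase of the glycine cleavage system, read 9.21, 8.76 and 8.61 in the control pools and 9.997, 9.57 and 9.56 in the quercetin pools (0.85 ± 0.16, adjusted p = 0.207). Control pool 1 was the highest control and lay 0.35 below the lowest quercetin pool. Agxt, alanine-glyoxylate aminotransferase, read 8.34, 8.23 and 8.19 in the control pools and 8.60, 8.77 and 9.31 in the quercetin pools (0.64 ± 0.14); quercetin pool 3 was well above the other pools of its group. Got1, the cytosolic aspartate aminotransferase, read 9.91, 10.51 and 10.71 in the control pools and 11.30, 11.15 and 11.06 in the quercetin pools (0.79 ± 0.18). In this gene control pool 1 was the lowest array, on the far side from quercetin. Without control pool 1, Hal passed at 0.98 ± 0.17 (adjusted p = 0.0354) and Gldc at 1.03 ± 0.15 (adjusted p = 0.019), and no other member of the list did.

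The methionine cycle hands on methyl groups and feeds sulfur to cysteine. Of its 10 measured genes 8 lay higher (median 0.20, and 0.17, 0.21 and 0.17 against the 3 control pools). In 6 the quercetin arrays lay above all controls (5.67% of all genes). Mat1a, the liver methionine adenosyltransferase, read 11.71, 11.90 and 12.02 in the control pools and 12.33, 12.18 and 12.36 in the quercetin pools (0.41 ± 0.10). Cth, which releases cysteine from cystathionine, read 10.39, 10.45 and 10.49 in the control pools and 11.14, 10.78 and 10.86 in the quercetin pools (0.49 ± 0.15). Both had control pool 1 as their lowest array. Bhmt2, which remethylates homocysteine, read 8.60, 8.23 and 8.53 in the control pools and 9.04, 8.98 and 9.15 in the quercetin pools. The difference was 0.60 ± 0.12 (adjusted p = 0.246), and without control pool 1 it passed at 0.67 ± 0.13 (adjusted p = 0.0406). The other Bhmt2 probe set differed by 0.28 ± 0.15, and without control pool 1 by 0.10 (adjusted p = 0.791). Cdo1, which oxidises cysteine and was counted with amino acid breakdown, stood at 0.37 ± 0.12. Gamt, the methyltransferase of creatine synthesis, went the other way through quercetin pool 1 alone, which read 6.89 against 8.17 and 8.37 in quercetin pools 2 and 3.

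**Figure D2:**
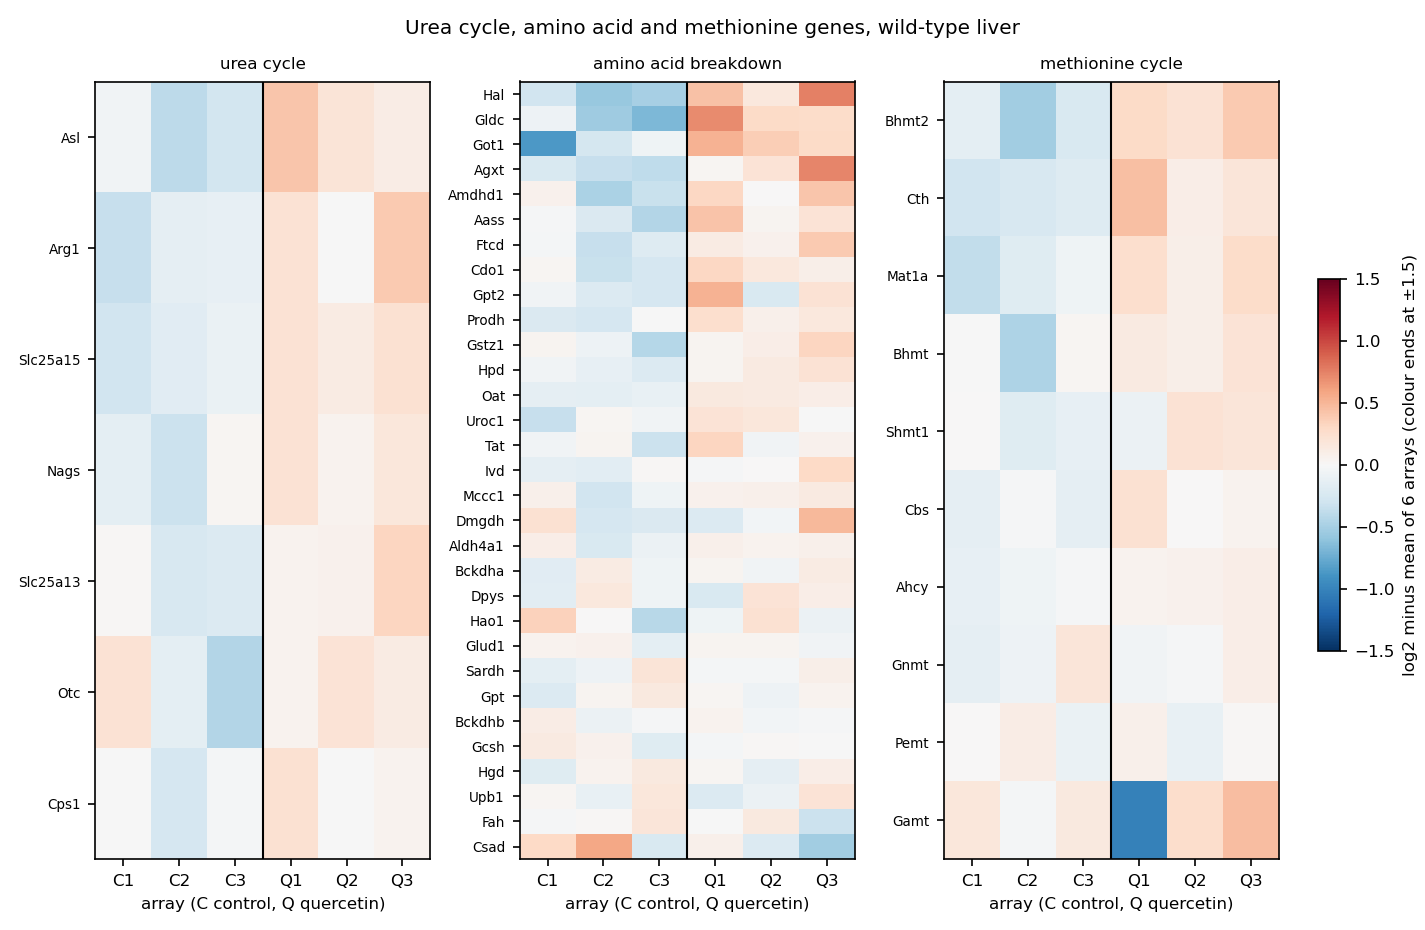
Log2 value of each measured member of the urea cycle, amino acid breakdown and methionine cycle lists in the 6 wild-type arrays (columns C1 to C3 control, Q1 to Q3 quercetin), minus the mean of the 6; red is higher and blue lower, with colours ending at ±1.5. Urea cycle genes are mostly blue in all 3 control columns, C1 included, and red in the quercetin columns; Otc is the exception, with C1 at 11.01.

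Among single genes, the 15 higher and 15 lower with the lowest p, no overlap and at least 1 diet's mean above the median of all values had adjusted p from 0.165 to 0.302. Their differences ran from 0.38 to 0.90 and from -1.36 to -0.40. None is called in the comparison with all 6 arrays, and 9 of the higher and 8 of the lower passed without control pool 1. Hal, Gldc, Agxt and Bhmt2, described above, are among the higher genes. Only Cxadr among these genes had probe sets of the opposite sign, but sizes differed within others. Probe sets ran from 0.06 to 0.53 for Epb41l1, 0.13 to 0.71 for Etfrf1, -0.84 to -0.09 for Deptor and -0.43 to -0.11 for Ola1.

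Kmo, the kynurenine hydroxylase of tryptophan breakdown, read 8.34, 8.17 and 8.09 in the control pools and 8.73, 8.77 and 9.09 in the quercetin pools (0.66 ± 0.12). Every quercetin pool lay above every control. Nampt, the rate-limiting enzyme of NAD salvage, read 8.27, 8.52 and 8.44 in the control pools and 7.56, 7.69 and 7.70 in the quercetin pools, the opposite direction (-0.76 ± 0.12, 1.69-fold lower, adjusted p = 0.165). Of the 12 measured genes of tryptophan breakdown and NAD synthesis 6 lay above and 6 below their control mean. The pathway thus had no common side. Sco2, a copper chaperone of cytochrome oxidase, read 9.17, 8.86 and 8.82 in the control pools and 9.53, 9.47 and 9.39 in the quercetin pools (0.51 ± 0.10). Etfrf1, a regulator of electron transfer flavoprotein, stood at 0.71 ± 0.13. Other genes of oxidative phosphorylation did not share this side: with Sco2 included, 33 of 58 lay below their control mean, and the list's median was -0.04.

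Lcat, the plasma enzyme that esterifies cholesterol on lipoproteins, had controls that differed by under 0.02: it read 10.62, 10.64 and 10.63 in the control pools and 10.93, 11.07 and 11.03 in the quercetin pools, a difference of 0.38 ± 0.08. Hebp1, a heme-binding protein, read 9.32, 9.501 and 9.64 in the control pools and 9.85, 10.10 and 10.22 in the quercetin pools (0.57 ± 0.11), and here control pool 1 was the lowest array. Cdip1, a proapoptotic target of p53, also had its lowest array there, with 7.84, 8.33 and 8.10 in the controls and 8.69, 8.58 and 8.57 with quercetin (0.53 ± 0.11). Cyp2d10, a cytochrome P450 of the 2d cluster, differed by 0.39 ± 0.09. Rad23b (nucleotide excision repair) differed by 0.49 ± 0.10 and Epb41l1 (a membrane skeleton protein) by 0.53 ± 0.11. Plbd1, a phospholipase B-like protein, and Gas5, a noncoding RNA that hosts small nucleolar RNAs, differed by 0.43 ± 0.10 and 0.39 ± 0.09.

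On the lower side, Xdh, xanthine oxidase of purine breakdown, read 8.35, 8.72 and 8.68 in the control pools and 8.14, 7.85 and 7.70 in the quercetin pools (-0.69 ± 0.14). Sult2b1, a cholesterol sulfotransferase, read 6.92, 7.24 and 7.61 in the control pools and 6.08, 6.56 and 6.42 in the quercetin pools (-0.90 ± 0.17, adjusted p = 0.219) and passed against control pool 3 alone (adjusted p = 0.0498). Cdc25a, a phosphatase of cell cycle entry, read 6.17, 6.51 and 6.13 in the control pools and 5.16, 5.36 and 5.28 in the quercetin pools, 2.01-fold lower (-1.004 ± 0.23). Only its control mean exceeded the median of all values, and its other probe set differed by just -0.04 ± 0.18, with overlap. The cell cycle list around it had 9 of 24 members above 0 and a median of -0.02, near that of all genes. Hes6, a bHLH repressor, differed by -0.55 ± 0.12, Ola1, an ATPase of the Obg family, by -0.43 ± 0.10 and Wfdc2, a secreted protease inhibitor, by -0.45 ± 0.10. Dbh, dopamine beta-hydroxylase, read 7.52, 7.53 and 7.55 in the control pools and 7.19, 7.05 and 7.05 in the quercetin pools (-0.44 ± 0.09). Cxadr, a tight junction receptor, differed by -0.40 ± 0.08, but 2 of its 4 probe sets had the opposite sign.

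**Figure D3:**
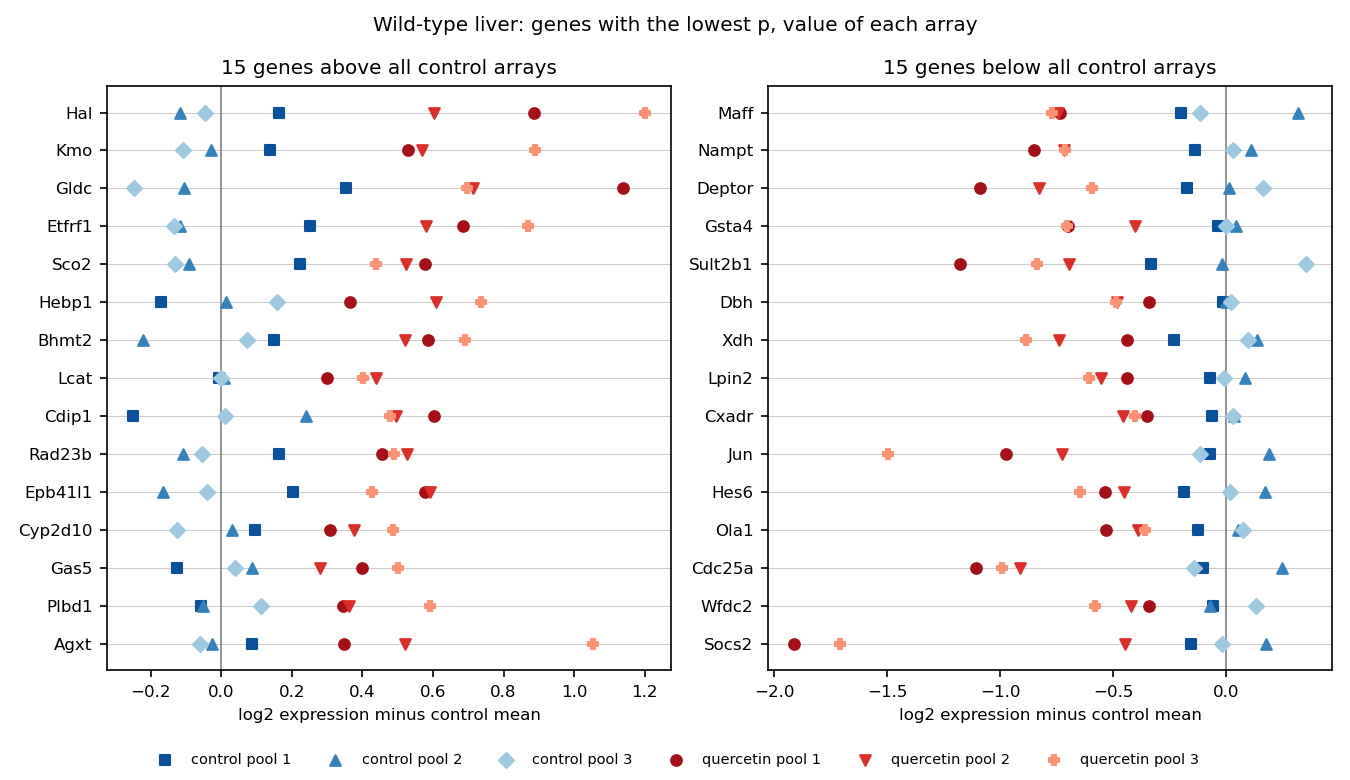
Log2 value of each wild-type array minus the control mean for the 15 genes higher (left) and the 15 lower (right) with quercetin that had the lowest p; blue symbols are the 3 control pools and red symbols the 3 quercetin pools. Control pool 1 (dark squares) lies nearest to the quercetin symbols in Gldc, Sco2 and Nampt, while in Hebp1 and Cdip1 it is the farthest from them.

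Antioxidant genes did not lie higher with quercetin. Of 27 measured targets of NRF2 and genes of glutathione metabolism 21 lay below their control mean, with a median of -0.15 (-0.13, -0.16 and -0.07 against the 3 control pools). In 9 the quercetin arrays were below all controls (6.23% of all genes) and in 0 above. Gsta4, the glutathione transferase of lipid aldehydes, read 9.29, 9.37 and 9.32 in the control pools and 8.62, 8.92 and 8.62 in the quercetin pools (-0.60 ± 0.11, adjusted p = 0.207), with control pool 1 level with the other controls. Gclm, the modifier subunit of glutathione synthesis, read 10.39, 10.23 and 10.21 in the control pools and 9.95, 10.20 and 9.96 in the quercetin pools (-0.24 ± 0.10). Its catalytic partner Gclc read 10.33, 10.10 and 9.63 in the control pools and 9.54, 9.75 and 9.82 in the quercetin pools (-0.32 ± 0.18), where the diets overlapped. Nqo1, a classical target, read 5.32, 5.27 and 5.38 in the control pools and 5.50, 5.29 and 5.54 in the quercetin pools (0.12 ± 0.12), and Hmox1, heme oxygenase, stood at -0.35 ± 0.24. Nfe2l2, which encodes NRF2, had one of the 6 positive differences, at 0.19 ± 0.11.

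Maff, a small MAF protein that pairs with NRF2 at antioxidant response elements and is itself induced as an early response gene, had the lowest p of the 15 lower genes. It read 6.44, 6.95 and 6.52 in the control pools and 5.90, 5.89 and 5.86 in the quercetin pools: the quercetin pools lay within 0.04 of each other and below every control. The difference was -0.75 ± 0.12, 1.68-fold (adjusted p = 0.165). It passed against control pool 2 alone (-1.07, adjusted p = 0.0109), and stood at -0.55 and -0.63 against pools 1 and 3. The 250 bases before the first of its 3 RefSeq transcription starts (chr15:79346371-79346620, GRCm38.p6, plus strand) hold 1 copy of the antioxidant response element core TGACNNNGC, shown in capitals, 112 bases before the start:
Maff: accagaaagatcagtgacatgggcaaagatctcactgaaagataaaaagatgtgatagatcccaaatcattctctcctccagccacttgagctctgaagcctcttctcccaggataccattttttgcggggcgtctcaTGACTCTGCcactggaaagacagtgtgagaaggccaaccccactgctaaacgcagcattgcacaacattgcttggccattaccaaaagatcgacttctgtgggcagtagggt
Both strands were searched in windows from 250 bases before to 50 after each start. The core was found in 7 of the 22 NRF2 and glutathione genes with a promoter sequence (31.8%), and in 14% of all 27025 genes. A match describes letters only.

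Other immediate early genes, which growth factors and stress induce within minutes, also lay lower. Of 27 measured 22 were below 0, with a median of -0.22, and of -0.23, -0.27 and -0.06 against the 3 control pools. Jun, a subunit of AP-1, read 6.92, 7.18 and 6.88 in the control pools and 6.02, 6.27 and 5.50 in the quercetin pools, 2.09-fold lower (-1.07 ± 0.23). Junb read 6.78, 6.498 and 6.52 in the control pools and 5.93, 6.17 and 6.25 in the quercetin pools (-0.48 ± 0.22) and the factor Klf4 4.38, 4.71 and 4.47 in the control pools and 4.23, 3.80 and 4.09 in the quercetin pools (-0.48 ± 0.13), both without overlap. Egr1 gave the only call against control pool 1 alone, at -3.02 (adjusted p = 0.00892), and it read 9.55, 6.65 and 6.92 in the control pools and 6.26, 6.30 and 7.02 in the quercetin pools. Control pool 1 was high by itself, and against control pools 2 and 3 Egr1 differed by -0.13 and -0.40. Fos showed the same single high array, at 5.94 in control pool 1 against 4.60 to 4.99 in the other 5.

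Heat shock genes, which encode chaperones under heat shock factor, lay lower in 21 of 22 cases. The median was -0.23, and in 7 genes the quercetin arrays lay below all controls (6.23% of all genes). The size rested on the control pool: against pools 1, 2 and 3 the median was -0.09, -0.37 and -0.36. Hspa1b, the inducible HSP70, read 8.37, 9.46 and 8.25 in the control pools and 6.85, 8.60 and 6.64 in the quercetin pools (-1.33 ± 0.51). Quercetin pool 2 was above 2 of the control pools, so the diets overlapped. Fkbp4, a co-chaperone of HSP90, read 8.23, 8.66 and 8.69 in the control pools and 7.90, 8.22 and 8.19 in the quercetin pools (-0.42 ± 0.15), and Dnajb1, the HSP40 partner, read 7.91, 8.22 and 8.03 in the control pools and 7.31, 7.91 and 7.66 in the quercetin pools (-0.43 ± 0.18); neither overlapped. Hspb1, a small heat shock protein, read 8.43, 9.82 and 9.68 in the control pools and 8.51, 8.87 and 8.37 in the quercetin pools. Without control pool 1 it was the gene with the largest called decrease, at -1.16 ± 0.21 (adjusted p = 0.0358), while against control pool 1 alone it stood at 0.16.

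The heat shock element core GAANNTTC was found in the promoter window of 11 of 18 heat shock genes (61.1%) against 9.04% of all genes. The 250 bases before the Hspa1b start (chr17:34959239-34959488, GRCm38.p6, minus strand) are shown 5′ to 3′ with the core in capitals, 104 bases before the start, since this gene had the largest difference of the list:
Hspa1b: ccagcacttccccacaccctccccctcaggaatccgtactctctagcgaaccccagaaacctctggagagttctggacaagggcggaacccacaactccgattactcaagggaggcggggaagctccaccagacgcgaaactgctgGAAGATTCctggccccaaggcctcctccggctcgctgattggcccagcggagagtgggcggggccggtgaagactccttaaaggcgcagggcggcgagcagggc
Genes of endoplasmic reticulum stress, which answer to other factors, had no common direction (13 of 24 above 0). In 3 of the 24 the quercetin arrays lay above all controls (5.67% of all genes) and in 1 below (6.23%). Hsp90b1 (0.54 ± 0.16), Calr (0.43 ± 0.14) and Pdia3 (0.29 ± 0.13) lay above all controls. Hsp90b1 read 9.89, 9.29 and 9.45 in the control pools and 9.98, 10.19 and 10.08 in the quercetin pools and passed without control pool 1 (adjusted p = 0.0474), as did Calr (adjusted p = 0.0364).

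How cholesterol synthesis genes compared depended on the control pool. Of 19 measured 16 lay below 0, with a median of -0.34. Against control pool 1 the median was -0.03 with 7 genes above 0, and against pools 2 and 3 it was -0.51 and -0.62. In 2 of the 19 genes the quercetin arrays lay below all controls (6.23% of all genes). Idi1, isopentenyl diphosphate isomerase, read 6.97, 8.80 and 8.60 in the control pools and 5.38, 8.05 and 7.33 in the quercetin pools (-1.20 ± 0.59). Control pools 2 and 3 were the highest arrays, control pool 1 lay within the quercetin range and quercetin pool 1 was far below all others. Cyp51, the sterol demethylase, read 6.73, 7.89 and 7.60 in the control pools and 5.09, 7.13 and 6.47 in the quercetin pools and Fdps, which makes farnesyl diphosphate, read 8.07, 9.41 and 9.49 in the control pools and 7.00, 8.88 and 7.86 in the quercetin pools, in nearly the same order of arrays. Without quercetin pool 1 the list's median was -0.19. Stard4, a sterol carrier, was the 1 member called without control pool 1, at -1.09 ± 0.18 (adjusted p = 0.0247). It read 7.29, 8.14 and 7.97 in the control pools and 6.58, 7.26 and 7.06 in the quercetin pools, with no overlap.

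Hmgcs1, the synthase that commits acetyl-CoA to the pathway, read 8.88, 9.75 and 9.71 in the control pools and 8.50, 9.55 and 8.64 in the quercetin pools (-0.55 ± 0.33). It was the 1 gene of 15 (6.67%; 1.44% of all genes) with the sterol regulatory element core TCACNCCAC in its promoter window. The 250 bases before its start (chr13:119690101-119690350, GRCm38.p6, plus strand) carry it 137 bases upstream, in capitals:
Hmgcs1: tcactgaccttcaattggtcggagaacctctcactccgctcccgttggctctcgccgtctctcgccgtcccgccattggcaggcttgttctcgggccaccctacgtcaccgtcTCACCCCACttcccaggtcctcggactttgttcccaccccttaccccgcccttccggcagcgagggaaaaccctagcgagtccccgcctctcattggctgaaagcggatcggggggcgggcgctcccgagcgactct
Insig2, which holds the SREBP complex in the endoplasmic reticulum, read 10.47, 9.10 and 9.22 in the control pools and 10.84, 10.54 and 9.93 in the quercetin pools. Like the synthesis genes, it had control pool 1 among the quercetin arrays, but with the opposite sign, and it passed without that pool at 1.28 ± 0.23 (adjusted p = 0.0343).

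Clock genes, which set daily rhythms of transcription, lay lower in 16 of 21 cases. The median was -0.18, and -0.04, -0.28 and -0.26 against the 3 control pools. Below all controls lay 6 genes (6.23% of all genes), and above them 0 (5.67%). Per2, a repressor of the core loop, read 6.05, 6.21 and 6.51 in the control pools and 5.75, 5.80 and 5.84 in the quercetin pools (-0.46 ± 0.12). Bhlhe40 (Dec1), which binds E-boxes, read 7.75, 7.85 and 7.95 in the control pools and 6.79, 7.26 and 7.59 in the quercetin pools (-0.63 ± 0.16). Dbp, a clock output factor, had the lowest difference of all 12393 genes, at -1.47 ± 0.51, and read 7.74, 8.47 and 8.96 in the control pools and 5.89, 6.42 and 8.43 in the quercetin pools. Quercetin pool 3 stood among the controls, so this gene overlapped (adjusted p = 0.47). The hour at which livers were taken is not given in the sources used here.

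Per1 read 7.97, 8.23 and 8.33 in the control pools and 7.95, 7.66 and 7.95 in the quercetin pools (-0.32 ± 0.13), below all controls by a narrow margin in control pool 1. The E-box CACGTG was found in the promoter window of 4 of 17 clock genes (23.5%; 8.09% of all genes). Of these 4, Per1 alone did not overlap between the diets, so the 250 bases before the first of its 2 starts are shown (chr11:69098699-69098948, GRCm38.p6, plus strand), with the E-box in capitals 166 bases upstream:
Per1: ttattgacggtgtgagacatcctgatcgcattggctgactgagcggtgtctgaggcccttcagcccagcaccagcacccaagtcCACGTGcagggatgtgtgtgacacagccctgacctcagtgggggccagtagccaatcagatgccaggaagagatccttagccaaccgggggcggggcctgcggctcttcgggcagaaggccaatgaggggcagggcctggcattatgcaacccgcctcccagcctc

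**Figure D4:**
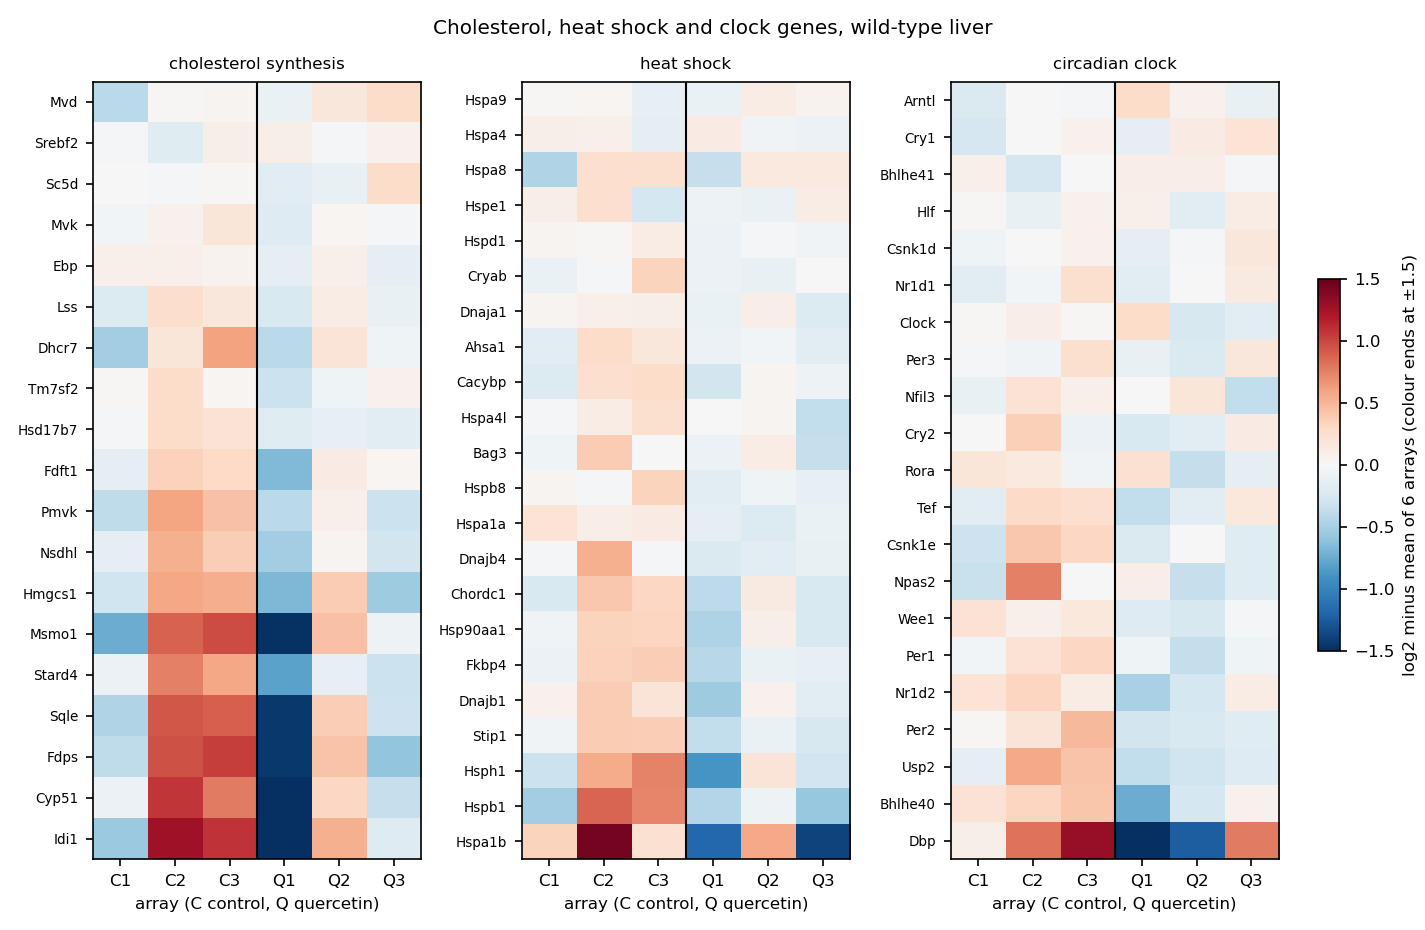
Log2 value of each measured member of the cholesterol synthesis, heat shock and circadian clock lists in the 6 wild-type arrays (columns C1 to C3 control, Q1 to Q3 quercetin), minus the mean of the 6; red is higher and blue lower, with colours ending at ±1.5. Columns C2 and C3 are red for most genes, while the mean of each list in C1 lies within the range of the quercetin columns. Single genes differ: in 2 cholesterol, 7 heat shock and 6 clock genes every quercetin column lies below C1, C2 and C3. For Idi1, C1 reads 6.97 against 8.80 and 8.60 in C2 and C3.

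Genes of insulin and growth hormone signalling were mostly lower. Of 20 measured genes that follow insulin, fasting or FOXO1, 15 lay below 0 (median -0.19; -0.12, -0.29 and -0.15 against the 3 control pools). Without control pool 2 the median was -0.09, and with each gene taken as the mean of its probe sets it was -0.13. In 1 of the 20 the quercetin arrays lay above all controls (5.67% of all genes) and in 4 below (6.23%). Deptor, an inhibitor of mTOR kinase, read 9.39, 9.58 and 9.73 in the control pools and 8.47, 8.74 and 8.97 in the quercetin pools (-0.84 ± 0.14, adjusted p = 0.166) and passed without control pool 1 at -0.92 ± 0.15 (adjusted p = 0.0261). Lpin2, a phosphatidate phosphatase, read 10.73, 10.89 and 10.80 in the control pools and 10.37, 10.25 and 10.20 in the quercetin pools (-0.53 ± 0.11). Both pairs of groups were well apart. Pdk4, which switches off pyruvate dehydrogenase, read 5.43, 6.10 and 5.15 in the control pools and 4.75, 4.99 and 5.03 in the quercetin pools (-0.64 ± 0.22). Pck1, the enzyme of gluconeogenesis, overlapped at -0.13 ± 0.14. In the growth hormone list 11 of 15 lay below 0 (median -0.17; -0.09, -0.12 and -0.10 against the 3 control pools, and -0.0625 without quercetin pool 1). Members clear of the controls were split evenly, with 2 above all controls (5.67% of all genes) and 2 below (6.23%). The highest difference in this list was 0.32. Socs2, the feedback inhibitor that growth hormone induces, read 7.76, 8.09 and 7.90 in the control pools and 6.01, 7.47 and 6.21 in the quercetin pools (-1.36 ± 0.32, 2.56-fold, adjusted p = 0.302). Quercetin pools 1 and 3 were far below the controls and pool 2 was the nearest to them. Cish, a related inhibitor, stood at -0.50 ± 0.18 and Igf1, the main hormone product, at -0.11 ± 0.10.

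Bile acid genes lay higher in 19 of 24 cases, with a median of 0.17 and of 0.09, 0.10 and 0.27 against the 3 control pools; without control pool 3 it was 0.07. In this list 6 lay above all controls (5.67% of all genes) and 0 below (6.23%). Hsd3b7, an enzyme of sterol ring modification, read 10.90, 10.19 and 10.27 in the control pools and 11.20, 11.02 and 11.09 in the quercetin pools (0.65 ± 0.17) and passed without control pool 1 (adjusted p = 0.0247). Cyp8b1, which directs synthesis to cholic acid, read 9.87, 10.18 and 10.13 in the control pools and 10.67, 10.32 and 10.58 in the quercetin pools (0.46 ± 0.18). Cyp27a1 (0.25 ± 0.09), Acox2 (0.38 ± 0.13) and the bile acid receptor Nr1h4 (0.31 ± 0.11) also lay above all controls. Cyp7a1, the rate-limiting enzyme, overlapped: it read 8.94, 8.58 and 9.47 in the control pools and 9.37, 8.98 and 9.54 in the quercetin pools (0.30 ± 0.27).

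Genes of complement and coagulation lay higher in 22 of 27 cases (median 0.12), but by only 0.01 against control pool 1. F9, coagulation factor IX, read 9.47, 9.33 and 9.30 in the control pools and 9.77, 9.78 and 9.81 in the quercetin pools (0.42 ± 0.11). F12, factor XII, stood at 0.39 ± 0.11. These were the 2 members above all controls (5.67% of all genes), and 1 lay below them (6.23%). Hamp, hepcidin, the hormone that limits iron uptake, read 11.58, 11.60 and 10.25 in the control pools and 12.01, 12.04 and 11.97 in the quercetin pools. It passed against control pool 3 alone (1.76, adjusted p = 0.0279), where that pool was low by itself, and differed by 0.43 and 0.41 against pools 1 and 2.

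The enzymes expected to handle quercetin as a foreign compound showed no common shift. Of 9 measured genes of the aryl hydrocarbon receptor 3 lay above 0 (median -0.02; -0.05, 0.14 and -0.08 against the 3 control pools). Cyp1a1, its best known target, read 6.10, 6.00 and 6.29 in the control pools and 6.34, 6.12 and 6.17 in the quercetin pools, a difference of 0.08 ± 0.11, or -0.15 to 0.32 as a 95% interval. Cyp1a2 read 10.92, 10.78 and 11.09 in the control pools and 10.54, 11.05 and 10.93 in the quercetin pools (-0.09 ± 0.19); its sign turned without quercetin pool 1. The receptor Ahr itself read 8.05, 6.84 and 7.04 in the control pools and 7.94, 7.49 and 7.97 in the quercetin pools (0.49 ± 0.29), with control pool 1 among the quercetin arrays. The xenobiotic response element core GCGTG was in the window of 5 of 6 genes (83.3%; 35.2% of all genes), and no promoter is shown since no receptor gene other than Xdh lay apart.

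CAR and PXR are nuclear receptors that switch on drug-metabolising enzymes, and their targets had 17 of 24 members above 0, with a median of 0.05 (0.06, 0.10 and -0.03 against the 3 control pools). Cyp3a11, a main PXR target, read 12.61, 12.74 and 12.77 in the control pools and 12.74, 12.76 and 12.63 in the quercetin pools; its difference of 0.0047 ± 0.08 has no settled sign. Cyp2b10, a CAR target, read 7.38, 7.53 and 8.27 in the control pools and 9.20, 8.01 and 7.38 in the quercetin pools, and its difference of 0.47 ± 0.40 rested on quercetin pool 1. Cyp3a13 read 9.28, 9.07 and 9.18 in the control pools and 9.57, 9.54 and 9.61 in the quercetin pools (0.39 ± 0.10). It was the 1 member above all controls (5.67% of all genes), and 1 lay below them (6.23%). Cyp2c39 read 9.81, 7.88 and 7.80 in the control pools and 9.69, 9.20 and 9.66 in the quercetin pools. It overlapped through control pool 1 alone, passed against pools 2 and 3 alone (1.63 and 1.71) and had the lowest adjusted p without pool 1, at 0.000103 (1.67 ± 0.13). Against control pool 1 it stood at -0.29.

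Of 21 genes for the conjugation and efflux of flavonoids, 13 lay above 0 (median 0.04; -0.05, 0.07 and 0.04 against the 3 control pools). Sult5a1, a sulfotransferase, read 6.75, 6.28 and 6.47 in the control pools and 7.24, 7.11 and 7.02 in the quercetin pools (0.62 ± 0.18). Ugdh, which makes the glucuronic acid donor, read 10.43, 10.30 and 10.27 in the control pools and 10.09, 10.06 and 9.84 in the quercetin pools (-0.34 ± 0.12), so these lay on opposite sides of the controls. Sult1a1, a phenol sulfotransferase, overlapped at 0.19 ± 0.15.

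A pair of probe sets named after their values were seen had the lowest p in fits with all arrays or without quercetin pool 1. The first, 1 of 4 probe sets of Rgs5, a G protein regulator of pericytes, read 6.88, 6.66 and 6.73 in the control pools and 5.96, 6.03 and 6.09 with quercetin (-0.73 ± 0.10, adjusted p = 0.0783). The other 3 differed by 0.04 to 0.22, so the gene's probe sets disagreed. Alas1 encodes the rate-limiting enzyme of heme synthesis. One of its probe sets read 8.98, 9.36 and 9.19 in the controls and 8.63, 7.97 and 8.21 with quercetin (-0.91 ± 0.15, adjusted p = 0.165), and the other Alas1 probe set lay lower too (-0.57 ± 0.17). The former passed without quercetin pool 1 (adjusted p = 0.0486), and both passed without control pool 1 (adjusted p = 0.0247 and 0.039).

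Besides Cyp2c39, several of the larger increases called without control pool 1 were in genes where that pool read like quercetin. Sdc4, a cell surface heparan sulfate proteoglycan, read 10.04, 8.51 and 8.41 in the control pools and 10.77, 10.10 and 9.89 in the quercetin pools; without pool 1 the difference was 1.79 ± 0.20 (adjusted p = 0.00304), and against pool 1 alone 0.21. Kdm2b, a histone demethylase, read 6.67, 5.48 and 5.72 in the control pools and 6.60, 6.84 and 6.89 in the quercetin pools and Fgf1, a growth factor, 8.26, 7.08 and 7.38 in the control pools and 8.02, 8.29 and 8.37 in the quercetin pools; against pool 1 alone they stood at 0.11 and -0.04. Clpx, a chaperone of the mitochondrial matrix, differed from these. It read 7.83, 6.95 and 6.77 in the control pools and 8.87, 8.32 and 8.21 in the quercetin pools, with every quercetin pool above every control, and its difference was 1.28 ± 0.33, the highest difference of the 12393 genes (adjusted p = 0.361). On the lower side, Vdr, the vitamin D receptor, read 5.40, 6.14 and 6.40 in the control pools and 4.92, 5.197 and 5.52 in the quercetin pools, and Pde8a, a phosphodiesterase of cyclic AMP, 7.75, 8.29 and 8.51 in the control pools and 7.81, 7.40 and 7.52 in the quercetin pools. In both, control pool 1 lay within the quercetin range.

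Genes expressed near the portal vein overlap with the urea cycle list. Of 11 such periportal genes 9 lay above 0 (median 0.19; 0.08, 0.34 and 0.13 against the 3 control pools and 0.32 without control pool 1). The 3 above all controls (5.67% of all genes), Hal, Arg1 and Cps1, are described above. Of 17 pericentral genes 9 lay above 0, with a median of 0.05. Other cytochromes P450 lay above 0 in 10 of 14 cases, with a median of 0.15 (0.05, 0.16 and 0.15 against the 3 control pools, and 0.08 without control pool 3). Cyp2d10 and Cyp2d26 (0.19 ± 0.10) lay above all controls and Cyp4f14 (-0.44 ± 0.16) below them.

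Fatty acid synthesis genes had 15 of 21 members below 0 (median -0.06; 0.04 against control pool 1). Elovl5, an elongase of polyunsaturated fatty acids, read 10.16, 9.92 and 9.77 in the control pools and 10.26, 10.56 and 10.69 in the quercetin pools, above all controls (0.55 ± 0.14), whereas Scd1, the stearoyl desaturase, stood at -0.64 ± 0.22 with overlap and Fasn, fatty acid synthase, at -0.30 ± 0.18. Fatty acid oxidation genes had 13 of 27 above 0, and their median of -0.09 turned to 0.02 without quercetin pool 2. Cpt1a, which imports fatty acids into mitochondria, lay above all controls at 0.31 ± 0.10. Hadha (-0.15 ± 0.08), Acaa1b (-0.19 ± 0.09) and Acaa2 (-0.15 ± 0.08), enzymes of beta-oxidation, lay below all controls. Ribosomal protein, proteasome, interferon, glucose and lipid droplet lists had medians between -0.06 and 0.02.

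**Figure D5:**
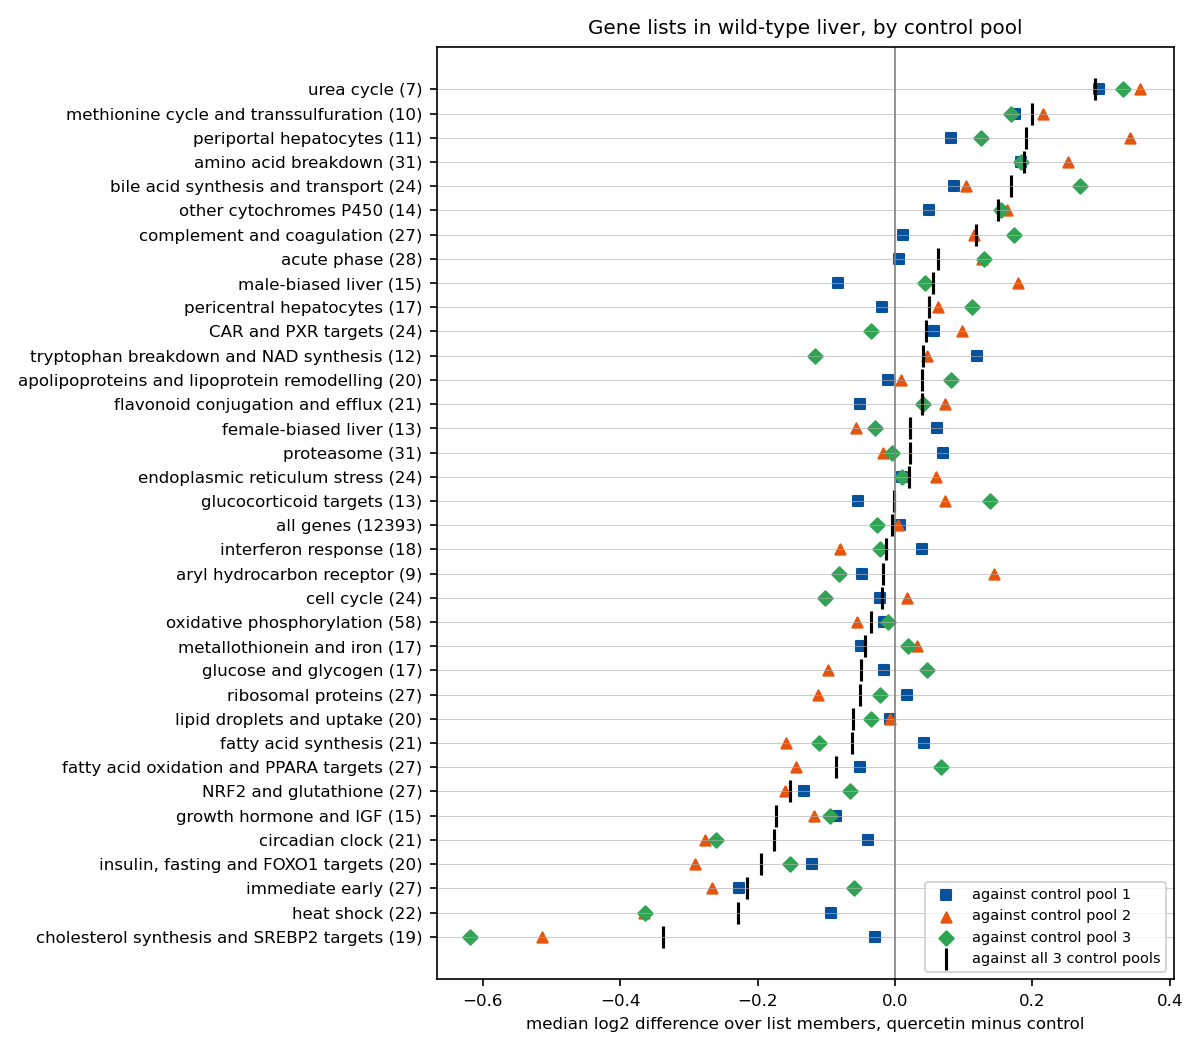
Median log2 difference (quercetin minus control) over the measured members of each pathway list and over all genes, with the number of members in brackets; coloured symbols set the quercetin mean against 1 control pool each and black bars against all 3. The urea cycle stands at 0.30 to 0.36 for every control pool, whereas cholesterol synthesis runs from -0.62 for pool 3 to -0.03 for pool 1.

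The labelled tissue was borne out by its markers: all 10 hepatocyte markers were above the median of all values, with Alb at 13.45 to 13.72 in the 6 arrays. Markers of other cells differed between single pools. In bulk liver fewer cells of a type and less RNA per cell cannot be told apart. Kupffer cell and macrophage markers lay higher in 16 of 18 cases (median 0.24), and their summed log2 level was 126.2 to 133.7 in the controls and 129.3 to 141.0 with quercetin. Quercetin pool 3 held the highest sum and control pool 1 the next; without quercetin pool 3 the median was 0.02. Lyz2, a lysozyme of macrophages, read 8.49, 7.15 and 6.89 in the control pools and 7.59, 8.01 and 9.04 in the quercetin pools, and Clec4f, a Kupffer cell lectin, 8.32, 7.74 and 7.89 in the control pools and 7.85, 7.65 and 8.49 in the quercetin pools. The markers' part in the gene differences above was not tested.

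Exocrine pancreas markers, from the organ beside the liver, had sums of 77.3 to 99.6 in the controls and 72.7 to 95.1 with quercetin. Control pool 2 and quercetin pool 3 were the high arrays. Cpb1, a pancreatic carboxypeptidase, read 7.29, 9.04 and 6.36 in the control pools and 5.96, 6.64 and 8.72 in the quercetin pools. All 12 markers lay below their control mean (median -0.39), but 11 of 12 lay above control pool 3. Skeletal muscle markers summed to 43.6 to 49.1 in the controls and 41.0 to 45.3 with quercetin, with Acta1, muscle actin, at -1.11 ± 0.36. The part of pancreas or muscle RNA in any difference was not tested. Endothelial markers summed to 80.4 to 81.9 in the controls and 82.0 to 82.8 with quercetin, without overlap. Their median difference was 0.11, and 0.005 against control pool 1. The sums of the 10 hepatocyte markers did not overlap either, at 127.4 to 127.9 and 128.1 to 128.7. Their median difference was 0.02, with 3 of the 10 below 0. The part of either cell type in the gene differences was not tested.

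The POR-null arrays entered the wild-type comparison through the spread, and so the ranking by p, and through the choice of probe set. With quercetin against control diet on those arrays, 12 of the 15 higher genes again lay above 0 and 11 of the 15 lower genes below 0. In POR-null liver 48.4% of all genes lay above 0. The medians of these genes were 0.17 in place of 0.53, and -0.08 in place of -0.69. The difference between the genotypes' responses passed for 0 of 22626 probe sets (0% called; 1397 or 6.17% at an unadjusted p under 0.05; lowest adjusted p = 0.254), and for these genes its adjusted p was 0.601 to 0.880. So neither a shared nor a different response of these genes was shown. Urea cycle genes had a median of 0.10 with 5 of 7 above 0, amino acid breakdown genes of 0.10 with 26 of 31, and methionine cycle genes of 0.16 with 9 of 10. Heat shock genes (-0.08) and immediate early genes (-0.06) kept their wild-type side at smaller medians. The NRF2 and glutathione list (0.004) and the clock list (-0.006) lay near 0. Other lists lay on the side opposite to wild type. Cholesterol synthesis genes stood at 0.10. Insulin, fasting and FOXO1 genes stood at 0.15 with 15 of 20 above 0, and periportal genes at -0.05 with 3 of 11 above 0. Without wild-type control pool 1 the genotype difference passed for 1 probe set, of Sdc4 (adjusted p = 0.00205).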

How the data were processed

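Values were analysed as deposited by the authors. They are on a log2 scale (2.57 to 14.2) with array medians of 5.93 to 5.99. Per the submitters' processing notes MAS5 and RMA were named, with no role for either, and the background correction is not given in the sources used here, so the steps behind the log2 values are unknown. Groups and pool numbers came from the titles. No normalization, filter or pseudocount was added.

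Of 22690 probe sets, 64 AFFX controls were left out. Of all probe sets 20380 had 1 gene symbol in the platform annotation, 691 several and 1555 none; only the first were named. They covered 12393 genes, each shown by the probe set of highest mean level over the 12 arrays. A probe set can read related transcripts of gene families.

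Differences were tested two-sided with limma 3.58.1 (R 4.3.3). The fit used all 12 arrays with 1 mean for each group, an intensity trend, moderated SE, and Benjamini-Hochberg adjustment over 22626 probe sets at 0.05. For single control pools each control array was a group of its own. P-values reflect only how pools of a group differ from each other. The array number limits precision.

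Genes were named by rule. In each direction it took 15 genes with the lowest p, no overlap and the higher diet's mean above the median of all values (5.96), so a gene could enter through 1 diet alone. It added up to 8 per direction called without a control pool or against 1 pool, up to 5 per pathway list with the lowest p, and a fixed set of drug and lipid metabolism genes. Further examples were picked with their values in view. The comparison, the 35 pathway lists and the 13 marker lists were chosen with earlier results of these data known, so lists are given as counts and medians with no test. Alternatives were a filter on low values, quantile normalization, other variance priors, array weights, only the 6 arrays, a replicate block, other gene summaries and leaving out each array. The procedure was tested on simulated data. Promoter sequences are from RefSeq (GRCm38.p6), matched by symbol. Figures were drawn with matplotlib 3.10.9.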

Additional observations from a re-analysis of the deposited data

How the results depend on the processing

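The number of probe sets called, 0 in the comparison with all 6 arrays, was 1 with the filter on low values, 1 without the intensity trend and 0 to 151 when 1 array was left out, the highest without control pool 1. With quantile normalization, a robust prior, array weights or only the 6 arrays it stayed at 0. Same-numbered pools did not pair: their deviations correlated at 0.13, -0.02 and -0.12. With the replicate number as a block 2 probe sets passed, of Gldc (higher) and Deptor (lower). For control pool 1 alone the count was 0 with a robust prior and 0 to 1 when 1 quercetin pool was left out. For pool 2 alone it was 9 and 1 to 7. For pool 3 alone it was 16 without the trend, 62 with a robust prior and 4 to 4 without a quercetin pool. The genotype difference was called for 0 to 1 probe sets when 1 wild-type array was left out. After the filter, which tests fewer probe sets, 848 probe sets lay above and 825 below all controls. These are counts of probe sets and cannot be set against the counts of genes given above. Of 614 alternative values for 41 genes, 589 kept their sign and side of the threshold, 19 passed and 6 turned. Leaving out 1 array put Cyp1a2 at -0.19 to 0.0615 and Cyp2b10 at -0.032 to 0.88, and both turned without quercetin pool 1. Cyp3a11 was at -0.064 after quantile normalization and at -0.0425 to 0.044 with 1 array left out; it turned without control pool 1, quercetin pool 1 or quercetin pool 2. The causes were not tested. Leaving out 1 array put the list medians at 0.24 to 0.38 for the urea cycle, 0.16 to 0.26 for amino acid breakdown and 0.15 to 0.28 for the methionine cycle.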
